A study of Mus musculus with 12 samples.

Results

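The clustered histone genes are the genes whose symbols begin with Hist1h, Hist2h, Hist3h or Hist4h, and 70 of them had a row in both deposited count tables, of 37931 gene names the tables shared. They were chosen by name alone. The set held 6 genes of linker histone H1, 20 of H2A, 19 of H2B, 12 of H3 and 13 of H4. In GENCODE M21, an annotation of the mouse build the authors used (mm10), 67 of the 70 were protein-coding and 3 were pseudogenes. The Hist1 genes, 56 in number, lay on chromosome 13, with 55 between 21715763 and 23934851 and Hist1h2al apart from them at 51202727 to 51203065. The 10 Hist2 genes lay on chromosome 3 (96219865 to 96270132), the 3 Hist3 genes on chromosome 11 (58948920 to 58956830) and Hist4h4 on chromosome 6 (136801553 to 136804415).

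Hair follicle stem cells were sorted from the back skin of mice, and the 12 RNA libraries made from them fell into 4 groups. The early telogen (resting phase) groups held 4 knockout (KO) libraries, replicates 1, 2, 3 and 5, of genotype K14-H2BGFP, K14Cre, Foxc1 fl/fl, and 3 wild-type (WT) libraries, replicates 1, 3 and 4, of genotype K14-H2BGFP, Foxc1 fl/fl, all with an age label of postnatal day 47 and with day 43 in the title of KO replicate 5. In anagen, the growth phase, there were 2 KO libraries of the same KO genotype (replicate 1 at day 29 and replicate 2 at day 31) and 3 WT libraries of the same WT genotype (replicate 1 at day 29, replicate 2 at day 30, and replicate 3 with day 31 in its title and day 43 as its age label). Both genotypes therefore carried the floxed Foxc1 alleles and a histone H2B fused to a green fluorescent protein. The fusion was driven by the promoter of keratin 14, a gene of basal keratinocytes and follicle stem cells. Only the KO genotype also carried Cre, driven by the same promoter. Cre and loss of Foxc1 therefore cannot be told apart when KO is compared with WT. The fusion carries a histone H2B coding sequence, and whether any of its reads were placed on H2B genes was not tested. No strain was given, and nothing in the labels ties each replicate to its own animal, so a p-value measures the spread between these samples, which may be technical.

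Most histone protein is made during S phase, when newly copied DNA has to be packed into nucleosomes, each an octamer of H2A, H2B, H3 and H4 closed off by H1. The clustered genes supply it, and their mRNAs are unlike other mRNAs: they usually lack introns, and they end in a conserved stem-loop in place of a poly(A) tail. The stem-loop binding protein (Slbp) holds that end, and the transcript is cleaved a few bases past it. Some clustered genes can also be read past the stem-loop to a poly(A) signal further on, which gives a polyadenylated transcript that does not depend on S phase. The libraries here were made from RNA selected with oligo(dT), which binds poly(A) tails, so values are levels of the RNA that this selection retained and not of total histone mRNA.

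The stem-loop was searched for in the annotated transcripts as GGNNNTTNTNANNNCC with pairing arms, on the transcript's own strand. It was found in 46 of the 70 genes and in 23 of 21810 protein-coding genes outside the clusters (0.105%). Its most frequent form, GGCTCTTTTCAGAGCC, was shared by 26 genes of H1, H2A, H2B and H3. The form of Hist1h4i, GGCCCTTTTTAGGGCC, was found in 2 genes, both of H4. The 30-base windows of 8 genes whose values are described further on show how alike the ends of these genes are. They are written 5′ to 3′ as DNA from GENCODE M21 transcripts, with the stem-loop in capitals.
Hist1h1c: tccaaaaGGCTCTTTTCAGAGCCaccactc
Hist1h1d: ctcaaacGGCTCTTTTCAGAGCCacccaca
Hist3h2a: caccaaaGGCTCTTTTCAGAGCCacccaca
Hist1h2bm: acacaaaGGCTCTTTTCAGAGCCactaagc
Hist1h2bf: acccaaaGGCTCTTTTCAGAGCCacctacc
Hist1h2be: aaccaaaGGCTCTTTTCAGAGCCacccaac
Hist1h3d: ccccaaaGGCTCTTTTCAGAGCCacccccg
Hist1h4i: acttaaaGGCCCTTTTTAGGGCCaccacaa

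The windows were alike, but the transcripts went on for very different lengths past them. The annotated transcript of Hist1h1d went on for 4884 bases past its stem-loop, that of Hist3h2a for 1643 and that of Hist1h1c for 840, whereas that of Hist1h2bm ended 46 bases past it and that of Hist1h2bf 29 bases past it. No stem-loop lay in the annotated transcripts of Hist1h2bc and Hist2h2be. Among the 23 genes annotated over 100 bases past the stem-loop, 9 had 100 or more counts over the 5 anagen libraries, and the median was 44 counts. Among the 23 genes annotated 100 or fewer bases past it, 2 had 100 or more counts (Hist1h2bm and Hist1h2bf), and the median was 12. Among the 24 genes with no stem-loop in a transcript, 4 had 100 or more counts, and the median was 9.5. The pseudogenes are among the 24, and several others have short annotated transcripts, such as Hist1h2bl with 381 bases and Hist1h4k with 312. A stem-loop past the end of such an annotation would not be found. These counts are not scaled for transcript length, which differed between the genes (7425 bases for Hist1h1d and 524 for Hist1h2bm).

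Reads placed at more than 1 position were not assigned to genes, so sequence shared between the genes may also bear on what could be counted. The tally of alignments that were not unique was 32.8% and 31.1% of the counts and tallies in the 2 anagen KO libraries. In the 3 anagen WT libraries it was 24.7%, 20.1% and 25.8%, so this share was higher in both KO libraries. Whether a read entered this tally once or once per position was not given. A stretch of 50 bases was called unique to a gene where no other gene's annotated transcript held it. Less than 50% of the stretches were unique in 36 of the 70 genes, of which 2 had 100 or more anagen counts and 11 were at 0 in anagen. In the other 34 genes, 13 had 100 or more and 1 was at 0. A stretch shared with an overlapping gene was also called not unique, although a read there can have 1 position. The parts of shared sequence and of transcript length in these counts were not tested. Hist1h1c was 91.5% unique and Hist2h2be was 100% unique. Hist1h2bf was 34.2% unique and shared most with Hist1h2bg, so its level may be undercounted. Hist2h2bb held no unique stretch, as its bases are also in the transcripts of Gm20628 and Gm42743, and its counts cannot be told apart from theirs by sequence. Hist1h2be, Hist1h1e and Hist3h2a overlap other annotated genes but were 83.7%, 68.0% and 68.5% unique. The strand option used in counting was not given.

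**Figure D1:**
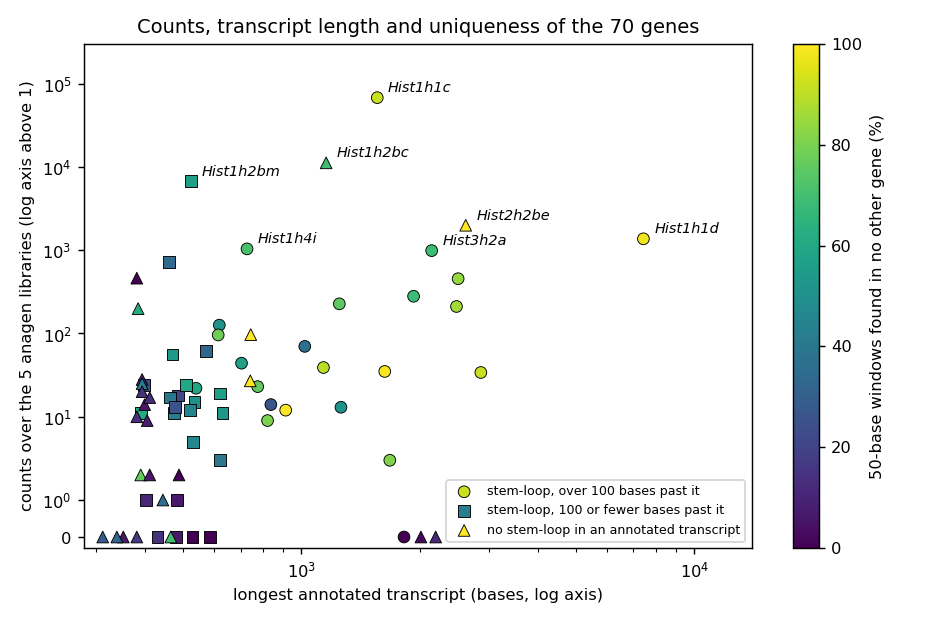
Counts summed over the 5 anagen libraries (y axis, log above 1) against the longest annotated transcript in bases (x axis, log), 1 point per gene, for the 70 clustered histone genes. Colour gives the share of 50-base stretches found in no other gene, and shape gives where the stem-loop lies. Hist1h1c, Hist1h2bc and Hist1h2bm stand above the rest, and most genes with short transcripts and few unique stretches sit near or at 0.

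Few of the 70 genes gave many counts. Over the 7 early telogen libraries 37 had at least 1 count, 2 had 100 or more (Hist1h1c and Hist1h2bc), and all 70 summed to 1179 counts. Over the 5 anagen libraries 58 had at least 1 count, 15 had 100 or more, and all summed to 95042 counts. In no library was a count seen for 9 genes, such as Hist2h2aa1, Hist2h2aa2 and Hist2h3c1, which have no unique stretch of 50 bases. Library totals ranged from 2662083 counts (KO replicate 5) to 11821916 in early telogen and from 29025553 to 54482469 in anagen, so a gene at 0 in early telogen may lie below what that depth could show. Foxc1 was at 0.910 to 3.11 CPM (each count relative to its library's sum over gene rows) in early telogen KO libraries and 43.8 to 61.2 CPM in early telogen WT libraries, and at 0.206 and 0.276 CPM in anagen KO libraries against 34.6 to 116 CPM in anagen WT libraries. The 10 markers of hair follicle stem cells and basal keratinocytes were detected in all 12 libraries and summed to 21842 to 36126 CPM.

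A single H1 gene supplied most of the signal. Hist1h1c, which encodes linker histone H1.2 (ENSMUSG00000036181.2, 1 exon on the plus strand of chromosome 13 from 23738808 to 23740367), made up 42.6% to 74.0% of all member counts in early telogen libraries and 57.3% to 79.5% in anagen libraries. The H1 genes together averaged 12.6 ± 3.29 CPM in early telogen KO (SD, n = 4), 9.51 ± 2.58 in early telogen WT (n = 3), 728 ± 684 in anagen KO (n = 2) and 230 ± 166 in anagen WT (n = 3). The H2B genes came second, with 5.83 ± 1.28 CPM in early telogen KO, 3.08 ± 0.396 in early telogen WT, 163 ± 101 in anagen KO and 102 ± 30.2 in anagen WT. The core histones are used in equal numbers in the nucleosome, yet their summed CPM, which is not scaled for length, differed widely in the retained RNA. The H2A genes reached 11.3 ± 6.88 CPM in anagen KO and 6.50 ± 1.70 in anagen WT, and the H4 genes 12.03 ± 12.03 CPM in anagen KO and 5.26 ± 4.33 in anagen WT. The H3 genes reached 3.90 ± 3.26 CPM in anagen KO and 1.22 ± 0.748 in anagen WT.

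**Figure D2:**
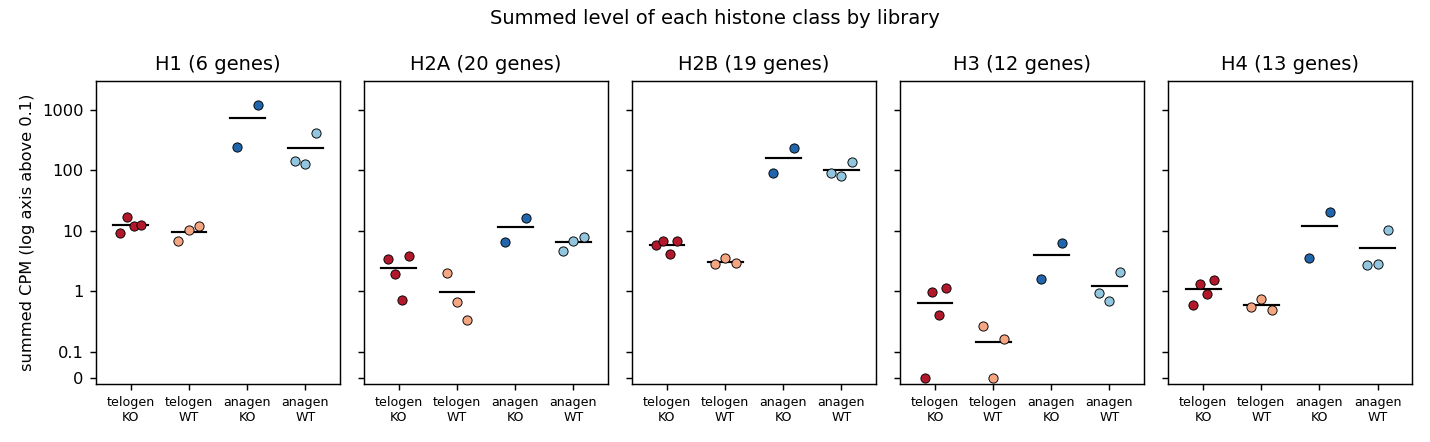
Summed CPM of each histone class (y axis, log above 0.1) by library, with early telogen KO, early telogen WT, anagen KO and anagen WT from left to right and bars at group means. All 5 classes reach their highest sums in anagen libraries, and H1 and H2B stand above H2A, H3 and H4 there.

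Per kilobase of the longest annotated transcript, and averaged over the 12 libraries, Hist1h1c led with 116 CPM per kb. Hist1h2bm followed with 27.9 and Hist1h2bc with 26.2, both of which encode H2B. The next in order were Hist1h4i at 3.97, Hist1h2bf at 3.36, Hist2h2bb at 3.01, Hist2h2be at 1.90 and Hist3h2a at 1.49 CPM per kb. In anagen WT, Hist1h2bm with 65.5 ± 23.9 CPM per kb and Hist1h2bc with 41.3 ± 36.0 (SD, n = 3) overlapped, and so did Hist1h4i with 5.37 ± 5.47 and Hist1h2bf with 8.01 ± 3.02. Hist1h2bc, at 16.4, 25.0 and 82.6 CPM per kb in the 3 anagen WT libraries, lay above Hist1h4i, at 2.40, 2.04 and 11.7, in each of them. Hist1h1d, the H1.3 gene, has an annotated transcript of 7425 bases. It had 22.6 CPM in anagen KO replicate 2, which is 3.04 CPM per kb. Averaged over the 12 libraries it had 3.65 CPM and 0.491 CPM per kb.

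The values of each library show the stage difference before any test. Hist1h1c had 9.05, 16.8, 11.2 and 10.9 CPM in early telogen KO libraries, 5.80, 10.1 and 11.6 CPM in early telogen WT libraries, 237 and 1184 CPM in anagen KO libraries and 140, 123 and 410 CPM in anagen WT libraries. All 7 early telogen libraries lay far below all 5 anagen libraries, and the 2 anagen KO libraries lay farther apart than the 2 genotype means did. Hist1h2bc had 2.12, 2.93, 2.43 and 4.88 CPM in early telogen KO, 1.79, 2.32 and 2.12 in early telogen WT, 41.5 and 160 in anagen KO and 19.0, 29.0 and 95.4 in anagen WT, and the stages again did not overlap.

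Hist1h2bm, an H2B gene on chromosome 13 (21722044 to 21722567, plus strand, 1 exon), had no count in any of the 7 early telogen libraries. In anagen it had 29.5 and 42.9 CPM in KO libraries and 47.8, 32.0 and 23.1 CPM in WT libraries. Hist1h2bf was likewise at 0 in all 7 early telogen libraries, and had 3.22 and 4.31 CPM in anagen KO and 5.14, 3.58 and 2.36 CPM in anagen WT. Both genes thus had counts in all 5 anagen libraries and in none of the 7 early telogen libraries. Hist1h2ac, an H2A gene, and Hist1h2ba, an H2B gene known from testis, were also at 0 in all early telogen libraries, with 211 and 199 counts over the anagen libraries.

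Other genes kept a trace of signal in early telogen. Hist2h2be, an H2B gene, had 2.62, 2.93, 0.505 and 0 CPM in early telogen KO libraries, 0.6249, 0.185 and 0.652 CPM in early telogen WT libraries, 10.4 and 11.8 CPM in anagen KO libraries and 12.9, 9.62 and 7.54 CPM in anagen WT libraries. Hist3h2a, an H2A gene, had 3.38, 1.78, 0.606 and 1.503 CPM in early telogen KO, 1.79, 0.278 and 0.163 in early telogen WT, 4.68 and 9.75 in anagen KO and 2.75, 6.17 and 5.56 in anagen WT. Hist3h2a was the one among the 8 genes with most anagen counts for which an early telogen library (KO replicate 1) lay above an anagen library (WT replicate 1). Hist1h4i, the H4 gene of highest level, had 0, 0, 0.606 and 1.13 CPM in early telogen KO, 0, 0 and 0.326 in early telogen WT, 2.47 and 18.4 in anagen KO and 1.74, 1.48 and 8.50 in anagen WT. Hist1h3d, the H3 gene of highest level, had no count in the 4 early telogen KO libraries and 0, 0 and 0.163 CPM in early telogen WT, against 0.926 and 4.38 CPM in anagen KO and 0.257, 0.154 and 1.44 CPM in anagen WT.

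**Figure D3:**
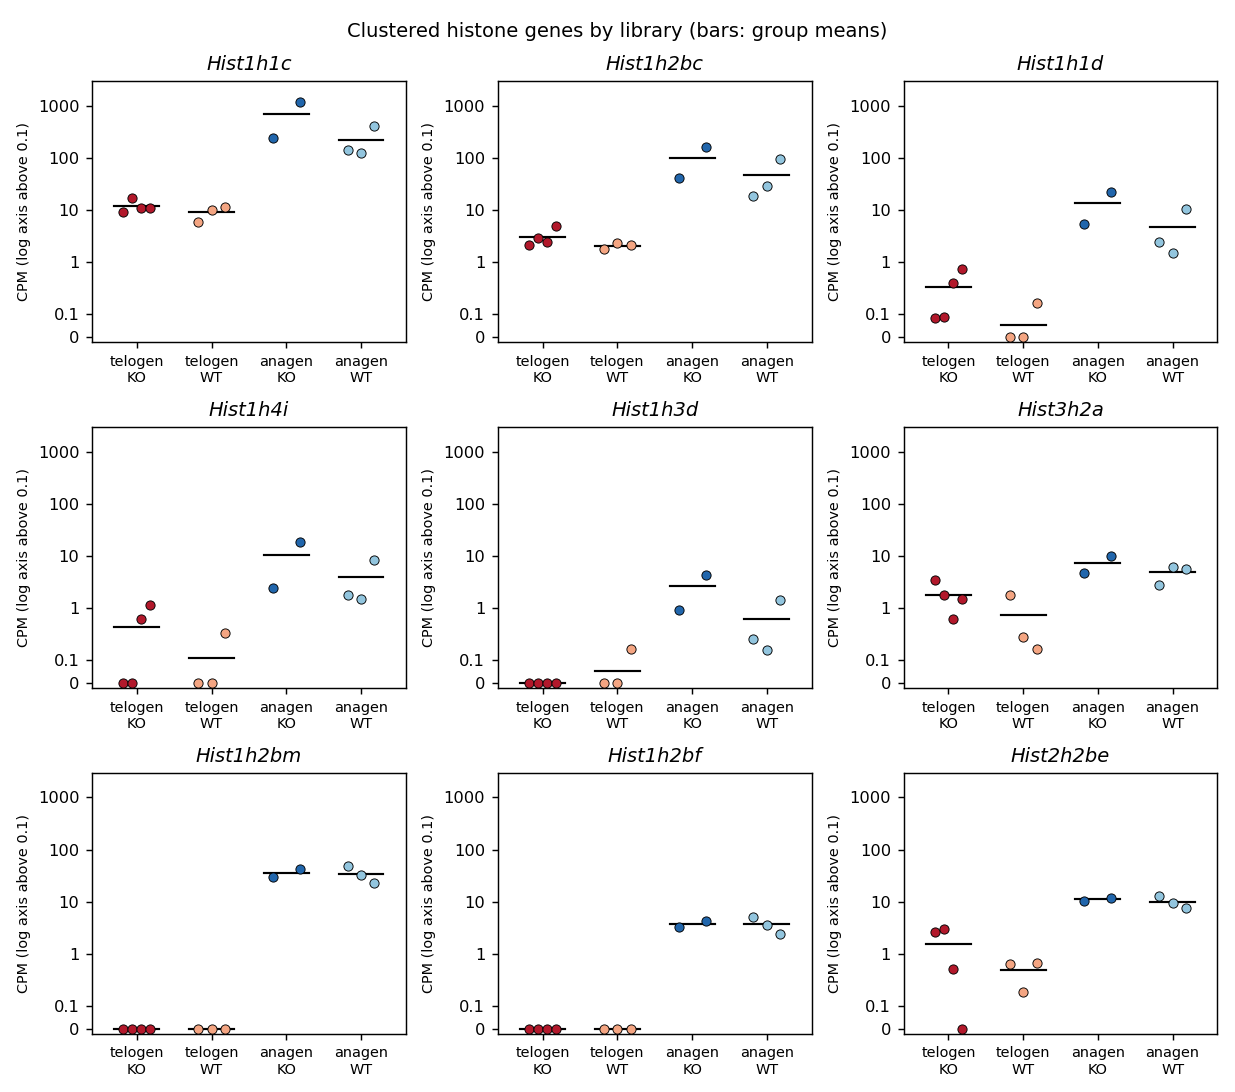
CPM (y axis, log above 0.1) of 9 clustered histone genes in each library, with early telogen KO, early telogen WT, anagen KO and anagen WT from left to right and bars at group means. Hist1h2bm and Hist1h2bf are at 0 in all 7 early telogen libraries. Hist1h1c, Hist1h2bc and Hist1h1d are highest in anagen KO replicate 2, the right-hand point of that group, and Hist1h2bm, Hist1h2bf and Hist2h2be are highest in anagen WT replicate 1.

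Early telogen was then set against anagen within each genotype, on the gene names shared by both tables. Stage, table, age and sequencing depth cannot be told apart in this comparison. In bulk RNA, fewer cells of a kind and less RNA per cell cannot be told apart either. In WT, the pooled level of all 70 genes was 23.1-fold lower in early telogen (395 counts) than in anagen (38319 counts), with a 95% exact interval of 20.9 to 25.5 that covers counting error only. In KO it was 38.0-fold lower (35.4 to 40.8), from 784 counts in early telogen and 56723 in anagen. Of the 70 genes, 51 were lower in early telogen in WT by pooled CPM, 4 were higher and 15 had no count in either group. In KO, 49 were lower, 9 higher and 12 without a count in either group. None of the 9 or the 4 had an interval or bound that excluded an equal level.

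In WT libraries, 10 clustered genes fell in early telogen relative to anagen and no tested one had an estimate above 0, where a gene passed at an edgeR quasi-likelihood adjusted p under 0.05 over all genes tested. Over all 12718 genes tested, 29.5% passed, with 15.9% lower and 13.6% higher in early telogen. Only 12 of the 70 genes passed the filter on low counts, and a gene could pass it through its anagen counts alone and then had to differ, so the count of 10 of 12 is not a share of the family. Hist2h2be fell by 4.32 ± 0.49 in log2 units (estimate ± SE, edgeR adjusted p 0.000866), Hist1h1c fell by 4.52 ± 0.61 (0.00398) and Hist1h2bc fell by 4.42 ± 0.72 (0.00687). The 3 changes were close in size and concern an H1 gene and 2 H2B genes on 2 chromosomes. Hist3h2a fell by 2.54 ± 0.74 (edgeR adjusted p 0.0301), Hist2h2bb fell by 2.85 ± 0.78 (0.0229) and Hist1h4i fell by 5.49 ± 1.29 (0.0139). These last 3 calls each depended on single libraries: Hist3h2a had an adjusted p of 0.0825 without early telogen WT replicate 3, 0.0792 without early telogen WT replicate 4, 0.0884 without anagen WT replicate 2 and 0.0690 without anagen WT replicate 3. Hist1h4i had 0.0557 and 0.0595 without early telogen WT replicates 1 and 3, and Hist2h2bb had 0.0552 to 0.0732 without early telogen WT replicates 1 or 4 or anagen WT replicates 1 or 2.

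For genes at or near 0 in early telogen WT, the bound from counting is given in place of a fitted change. Hist1h2bm was at least 346-fold lower, Hist1h2bf at least 37.3-fold lower and Hist1h2be at least 17.0-fold lower in early telogen WT than in anagen WT, taking 3 counts over the group as the floor. These 3 genes had no early telogen WT count, so they entered the test through their anagen counts alone. Hist1h1d had 1 count in early telogen WT and 507 in anagen WT, a level 121-fold lower (21.5 to 4773). Early telogen WT replicate 4 held all early telogen WT counts of Hist1h1d and of Hist1h4i. Hist1h1e, the H1.4 gene, had -1.35 ± 1.08 on the log2 scale and did not pass (edgeR adjusted p 0.382). Against 23.8-fold for Hist1h1c (20.9 to 27.1), 20.3-fold for Hist1h2bc (15.7 to 26.8) and 22.9-fold for Hist2h2be (13.3 to 43.0), the pooled level of Hist3h2a was 5.19-fold lower (3.45 to 8.18) in early telogen WT.

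In KO libraries 13 of 14 clustered genes tested fell in early telogen relative to anagen, beside 12% lower, 10.2% higher and 22.2% in all among the 12771 genes tested. Here too a gene could pass the filter through its anagen counts alone and then had to differ, as for Hist1h2bm, Hist1h2bf and Hist1h3d, which had no count in early telogen KO, so nothing is read from the 13 of 14 against that share. Hist1h1c fell by 5.90 ± 0.55 in log2 units (edgeR adjusted p 0.000200), Hist1h2bc fell by 5.17 ± 0.52 (0.000255) and Hist1h1d fell by 5.81 ± 0.82 (0.000937). Hist2h2be fell by 2.77 ± 0.69 (edgeR adjusted p 0.0173) and Hist3h2a fell by 1.99 ± 0.60 (0.0364). Hist1h2bm was at least 418-fold lower, Hist1h2bf at least 43.7-fold lower and Hist1h3d at least 28.5-fold lower in early telogen KO than in anagen KO. Hist2h3c2, an H3 gene, was the tested gene that did not pass (-0.97 ± 1.25, adjusted p 0.607). Anagen KO replicate 2 carried much of this: without it 5 of 15 clustered genes tested passed, and Hist2h2be (adjusted p 0.0720), Hist3h2a (0.335), Hist1h4i (0.302), Hist1h2be (0.335), Hist2h2bb (0.153) and Hist1h3d (0.126) did not. Hist1h1c still fell by 4.36 and Hist1h2bc fell by 3.89 in log2 units without it.

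**Figure D4:**
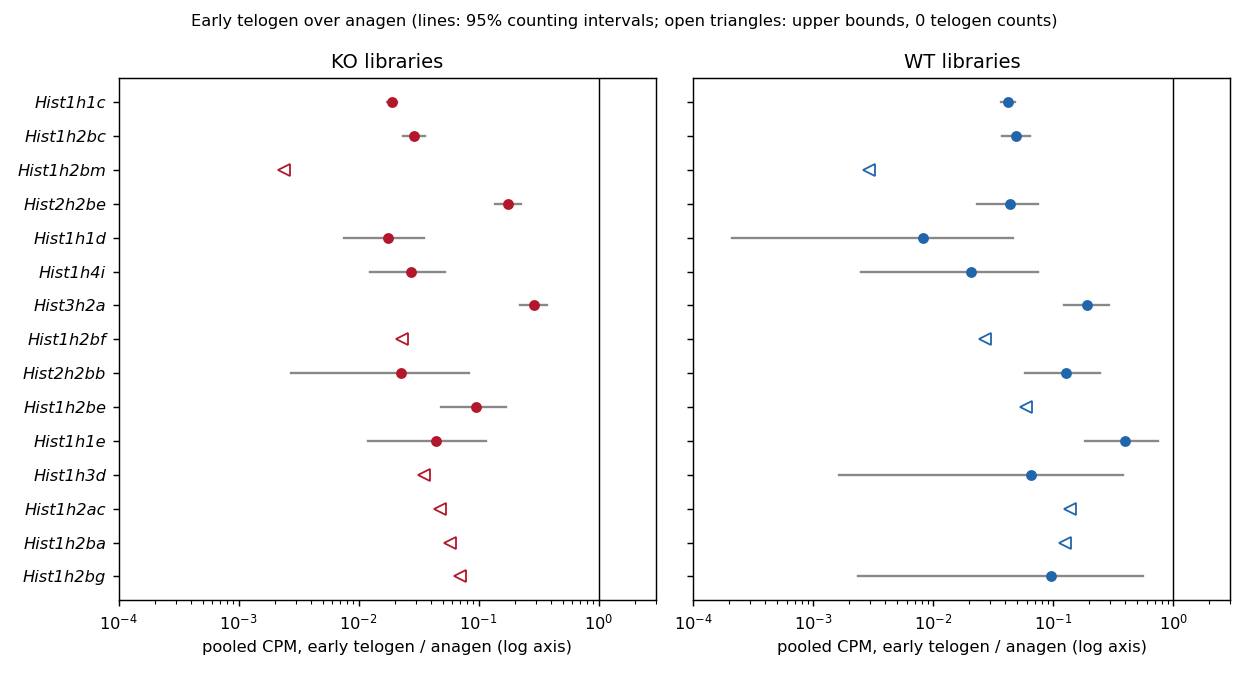
Pooled CPM in early telogen over anagen (x axis, log) for the 15 clustered genes with 100 or more anagen counts, in KO libraries on the left and WT libraries on the right. Lines are 95% counting intervals and open triangles are upper bounds where early telogen had no count. All points lie left of the line at equal levels, Hist1h2bm farthest and Hist3h2a among the nearest.

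The KO was compared with WT within early telogen, the question the study's design puts to each stage. No clustered gene passed. The 3 that could be tested by edgeR had log2 fold changes of 0.20 ± 0.32 for Hist1h1c (adjusted p 0.869), 0.35 ± 0.53 for Hist1h2bc (0.861) and 1.08 ± 0.87 for Hist3h2a (0.686), and none had an unadjusted p under 0.05. Over all 12030 genes tested, 0.956% passed, with 0.499% higher in KO and 0.457% lower, and 1448 had an unadjusted p under 0.05. DESeq2, which gave an estimate for 37 clustered genes, also called none of them, against 217 higher and 182 lower over all genes. The change in Hist1h1c was -0.08 on the log2 scale without WT replicate 1.

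Summed over all 70 genes the early telogen KO libraries had 18.9, 28.1, 17.9 and 25.5 CPM and the early telogen WT libraries 12.2, 15.02 and 15.7 CPM. The groups did not overlap, and the pooled ratio of KO to WT was 1.57 (1.39 to 1.77, counting error only). The H2B genes did not overlap either, with 4.04 to 6.76 CPM in KO and 2.77 to 3.52 CPM in WT, whereas the H1 genes overlapped with 9.14 to 17.1 CPM in KO and 6.69 to 11.7 CPM in WT. The H2A, H3 and H4 genes overlapped too, so H2B was the only class in which the genotypes separated. These sums rest on 784 counts in KO and 395 in WT. They are scaled by library totals, with which the median log2 fold change of all genes tested was itself 0.21, against 0.03 in the edgeR test above. The part of that shift in the sums was not tested. In the same libraries the 12 mitosis genes summed to 128 to 172 CPM in KO and 13.5 to 31.9 CPM in WT, and the 9 endothelial markers to 34.2 to 47.2 CPM in KO and 2.69 to 31.8 CPM in WT, where WT replicate 3 was lowest and Emcn was at 0 in it. KO replicate 2, which had the highest sum of histone genes, also had the highest fibroblast markers (4993 CPM over 7 genes, against 465 to 1508 in the other KO libraries and 253 to 1510 in WT). The part of these in the histone sums was not tested. Some early telogen counts came from a single library, such as the 12 counts of Hist1h2bb, all in KO replicate 1, a gene named here after its values were seen.

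In anagen no gene of the 14409 tested passed with edgeR (0%), so no clustered gene did, of the 20 tested. An unadjusted p under 0.05 was found for 1456 genes, 2 of them clustered histone genes. These were Hist1h1b, the H1.5 gene, with 1.90 ± 0.63 on the log2 scale (edgeR adjusted p 0.369), and Hist1h1e with 1.52 ± 0.54 (0.405). DESeq2 called 91 genes higher and 409 lower in anagen KO and no clustered histone gene. Hist1h1c had 1.57 ± 0.76 (edgeR adjusted p 0.560), Hist1h3d 2.03 ± 1.05 (0.588), Hist1h1d 1.46 ± 0.91 (0.657), Hist1h4i 1.33 ± 1.01 (0.725) and Hist1h2bc 0.98 ± 0.79 (0.741). Near 0 were Hist1h2bm with -0.01 ± 0.33 (adjusted p 0.994), Hist1h2bf with -0.07 ± 0.43 (0.981), Hist2h2be with 0.06 ± 0.29 (0.976) and Hist2h2bb with 0.03 ± 0.47 (0.992). Estimates were above 0 for 18 of the 20 genes, with a median of 0.97 against 0.02 over all genes tested, but the median was -0.09 without anagen KO replicate 2. Without that library the log2 fold change was -0.01 for Hist1h1c, -0.29 for Hist1h2bc and -0.74 for Hist1h4i.

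**Figure D5:**
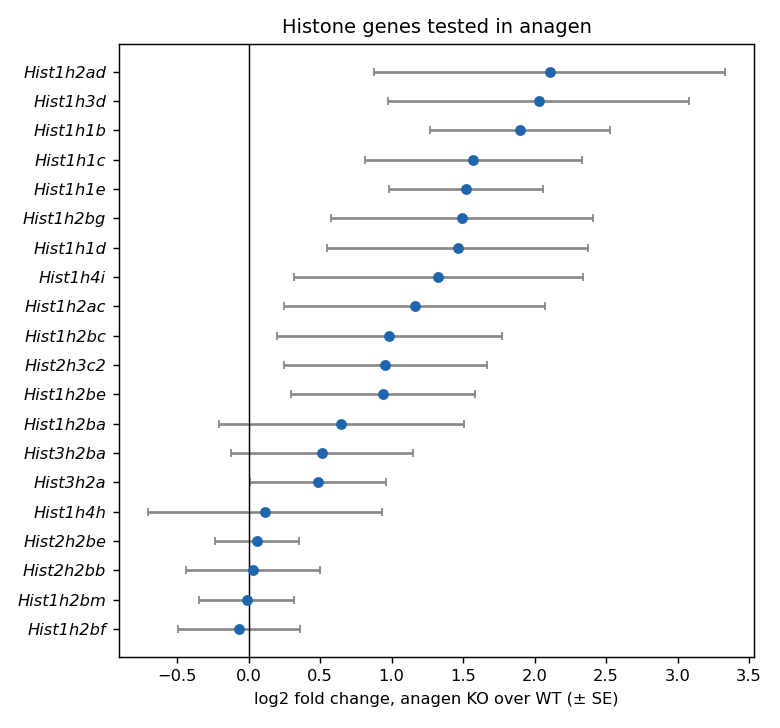
Log2 fold change of KO over WT in anagen (x axis) for the 20 clustered histone genes tested, with bars of 1 SE from edgeR. The H1 genes tested, Hist1h3d, Hist1h2ad, Hist1h2bg, Hist1h4i and Hist1h2ac lie above 1. Hist1h2bm, Hist1h2bf, Hist2h2be, Hist2h2bb and Hist1h4h lie near 0, and none of the 20 genes passed the test.

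The anagen libraries were ordered differently by different genes. Hist1h1c, Hist1h2bc, Hist1h1d, Hist1h4i and Hist1h3d were each highest in KO replicate 2 and next highest in WT replicate 3, both titled day 31. Hist1h2bm, Hist1h2bf and Hist2h2be were each highest in WT replicate 1, titled day 29, and lowest in WT replicate 3. Hist2h2bb was highest in KO replicate 2 and lowest in WT replicate 3. Summed over all 70 genes the anagen KO libraries had 348 and 1489 CPM and the anagen WT libraries 243, 215 and 578 CPM, and the genotypes overlapped. Within the title day that each KO library shares with 1 WT library, the ratio of KO to WT for this sum was 1.43 at day 29 and 2.58 at day 31. Gene by gene, the ratio was above 1 on both days for 9 of the 13 named genes. Some of the 13, such as Hist1h1b and Hist1h1e, were named for a small p in this same comparison. The share over all genes was not taken, so nothing is read from this count. The ratio for Hist1h1c was 1.69 at day 29 and 2.89 at day 31, and for Hist1h2bc 2.19 and 1.68. For Hist1h2bm it was 0.616 at day 29 and 1.86 at day 31, and for Hist1h2bf 0.626 and 1.82, and Hist2h2be and Hist2h2bb changed side with the day in the same way. Libraries of the same title day deviated together from their group means over the 14409 genes tested in anagen, with correlations of 0.414 and 0.359. Each of these ratios compares 1 library with 1 library and has no replicate check. With title day as a block no clustered gene passed, and Hist1h1c had an edgeR adjusted p of 0.0836.

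Mitosis genes did not follow Hist1h1c across the anagen libraries. They summed to 525 CPM in KO replicate 1 and 136 in KO replicate 2, and to 279, 101 and 50.9 CPM in WT replicates 1, 2 and 3. The libraries highest in Hist1h1c in each genotype were thus the lowest in these 12 genes. The 19 S-phase replication genes found in both tables summed to 837 and 566 CPM in anagen KO and 668, 485 and 419 CPM in anagen WT, in the same order within each genotype as the mitosis genes. Immune cell markers (11 genes, none at 0 in it) summed to 180 CPM in KO replicate 2 against 43.0 in KO replicate 1 and 20.4 to 111 in WT libraries. By label, the sex was female for both anagen KO libraries and male for 2 of the 3 anagen WT libraries. The part of these in the histone values was not tested.

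Whether the KO effect itself differed between stages, as early telogen minus anagen, was tested over all 12 libraries. None of 17 clustered genes tested passed, beside 0.144% of 13193 genes (0.129% with a positive and 0.0152% with a negative difference), and the smallest edgeR adjusted p of a clustered gene was 0.849. An unadjusted p under 0.05 was found for none of them, and DESeq2 called none of 61. For Hist1h1c the estimate was -1.39 ± 0.85 on the log2 scale (edgeR adjusted p 0.903), and for Hist2h2be it was 1.55 ± 0.95 (0.896). With no filter on low counts Hist1h1c passed, with an estimate of -1.38 and an adjusted p of 0.00663. Without anagen KO replicate 2 its estimate was 0.18.

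Promoter motifs varied with the histone class. RefSeq (build GRCm38.p6) gave a window of 250 bases before to 50 after the start for 61 of the 70 genes, 62 windows in all, and each was searched on both strands for CCAAT, the box bound by NF-Y, for TATAAA, the TATA box, and for ATGCAAAT, the octamer bound by Oct-1 and known from H2B promoters. CCAAT was found in every window of H1 (6 of 6), H2A (17 of 17), H2B (17 of 17) and H3 (10 of 10) genes and in 3 of 12 windows of H4 genes, against 37.4% of the 32851 windows of all genes. TATAAA was found in 35 of the 62 windows and in 13.6% of all windows. ATGCAAAT was found in 7 of 17 windows of H2A and 7 of 17 of H2B genes, in none of the H1, H3 or H4 windows, and in 1.74% of all windows. Some H2A and H2B windows overlap, such as those of Hist1h2aa and Hist1h2ba and of Hist1h2ae and Hist1h2bg. The same match can thus be counted in both classes. The windows of Hist1h2bq and Hist1h2br hold the same sequence, so the windows are not separate observations. A match is a run of letters anywhere in the window and not a binding site, and its distance from the start was not taken into account. The classes H1, H2B and H4 are shown by the 250 bases before the start of Hist1h1c (chr13:23738557-23738806, plus strand), Hist1h2bm (chr13:21721794-21722043, plus strand) and Hist1h4i (chr13:22041363-22041612, minus strand), with matches on either strand in capitals. Hist1h1c has 1 CCAAT match, Hist1h2bm has 3 and an octamer, and Hist1h4i, without CCAAT, has 1 TATAAA match.
Hist1h1c: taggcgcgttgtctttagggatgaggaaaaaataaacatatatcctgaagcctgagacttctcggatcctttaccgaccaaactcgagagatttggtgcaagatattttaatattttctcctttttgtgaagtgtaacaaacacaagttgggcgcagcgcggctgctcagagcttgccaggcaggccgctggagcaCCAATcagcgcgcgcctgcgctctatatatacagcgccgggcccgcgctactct
Hist1h2bm: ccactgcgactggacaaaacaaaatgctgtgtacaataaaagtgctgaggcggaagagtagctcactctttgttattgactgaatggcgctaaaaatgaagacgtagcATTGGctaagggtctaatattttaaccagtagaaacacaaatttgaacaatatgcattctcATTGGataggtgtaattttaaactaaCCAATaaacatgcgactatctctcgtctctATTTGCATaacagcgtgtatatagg
Hist1h4i: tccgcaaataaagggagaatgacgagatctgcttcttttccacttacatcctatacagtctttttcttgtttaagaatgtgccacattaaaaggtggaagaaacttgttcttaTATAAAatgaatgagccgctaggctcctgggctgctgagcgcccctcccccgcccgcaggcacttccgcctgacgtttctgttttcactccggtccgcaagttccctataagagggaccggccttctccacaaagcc

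The variant histones outside the clusters, most of which have polyadenylated mRNAs, stood at far higher levels. Their 11 genes summed to 1923 to 2912 CPM in early telogen KO, 1962 to 1979 in early telogen WT, 3785 and 7314 in anagen KO and 3212 to 4360 in anagen WT. None passed between genotypes by edgeR or DESeq2 in either stage, and 2 in early telogen and 4 in anagen had an unadjusted edgeR p under 0.05. In WT, 7 of 11 fell in early telogen relative to anagen, with a median of -0.98 on the log2 scale against -0.10 over all genes. Cenpa, the centromeric H3, fell by 3.11 ± 0.49 (edgeR adjusted p 0.00316), H1fx, a linker histone, fell by 2.24 ± 0.36 (0.00268), H2afv, an H2A.Z gene, fell by 1.26 ± 0.19 (0.00203) and H3f3b, an H3.3 gene, fell by 0.92 ± 0.22 (0.0120). In KO, 6 of 11 fell, with a median of -0.93 against -0.03 over all genes, and H1f0, the linker histone of resting cells, fell by 1.79 ± 0.32 (0.00337). The single-exon protein-coding genes outside the clusters, which share the lack of introns, had medians of -0.18 in WT and -0.19 in KO. In WT 29 of 200 tested fell and 15 rose, and in KO 34 of 195 fell and 17 rose. Over all genes tested 15.9% fell and 13.6% rose in WT, and 12% fell and 10.2% rose in KO.

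Genes that make and handle histone mRNA and protein were read in the same fits. Of the genes for histone mRNA transcription and 3′ end processing, none of 18 tested passed between genotypes in early telogen and none of 20 in anagen by edgeR or DESeq2, none had an unadjusted edgeR p under 0.05, and 1 of 18 fell in WT early telogen relative to anagen, Cdk2, the S-phase kinase, which fell by 0.61 ± 0.17 (edgeR adjusted p 0.0224). Slbp had -0.12 ± 0.22 between genotypes in early telogen (adjusted p 0.889). Of 19 histone chaperones none passed between genotypes by edgeR or DESeq2, and 2 in each stage had an unadjusted edgeR p under 0.05. In WT, 3 fell and 3 rose in early telogen relative to anagen. These counts are near the shares over all genes tested, of which 15.9% fell and 13.6% rose. Asf1b, which hands on H3 and H4 during replication, fell by 4.43 ± 1.15 (edgeR adjusted p 0.0195), Chaf1b, of the CAF-1 assembly complex, fell by 1.14 ± 0.36 (0.0368), and Hjurp, the chaperone of Cenpa, fell by 1.07 ± 0.30 (0.0280). Asf1b had no count in early telogen WT replicates 1 and 3, so its fitted change lies near the floor of the counts. Nasp, a chaperone of H1 and H3, rose by 0.61 ± 0.18 (edgeR adjusted p 0.0309), Atrx, a partner of Daxx in loading H3.3, by 0.61 ± 0.15 (0.0152) and Supt16, a subunit of FACT, by 0.69 ± 0.16 (0.0117).

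Between genotypes in early telogen, some cell cycle genes passed. No clustered histone gene did, but only 3 of the 70 had enough counts to be tested there. The other clustered genes are therefore not shown to be unchanged. Of the 12 mitosis genes 5 rose in early telogen KO (10 by DESeq2), with a median of 2.34 over the list against 0.03 over all genes. Mki67 rose by 2.52 ± 0.22 in log2 units (edgeR adjusted p 9.65e-05) and Top2a, which untangles replicated DNA, by 2.34 ± 0.28 (0.00146). Of 19 S-phase replication genes tested 1 rose by edgeR, Mcm5, a subunit of the replicative helicase, by 1.25 ± 0.25 (edgeR adjusted p 0.0332). DESeq2 called 3, Mcm5, Mcm2 and Gins2, and 10 of the 19 had an unadjusted edgeR p under 0.05, with a median of 0.62 over the list. Over all genes tested in WT, 15.9% fell and 13.6% rose in early telogen relative to anagen. Beside that, 5 of the 12 mitosis genes fell, and of the 19 S-phase genes tested 5 fell and 2 rose. The 2 were Pcna, the polymerase clamp, by 0.59 ± 0.18 (0.0320), and Rrm2, which makes deoxynucleotides, by 0.86 ± 0.27 (0.0392).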

How the data were processed

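The authors deposited 1 table per stage, and its values were raw counts of reads for each gene. Per the submitters' processing notes, reads were aligned with TopHat2 to mm10 and counted with HTSeq, and versions, settings and the strand option are not given in the sources used here. Per the labels, libraries were made with a directional kit from oligo(dT)-selected RNA of cells sorted as positive for H2BGFP, CD34 and CD49f and negative for Sca-1. Broken lines (3, all in the early telogen counts) were left out, and 27 names there had been turned into dates. The 5 tally lines of the anagen table stayed out of totals and tests, and reads placed at several positions are not in the counts.

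CPM used totals over gene rows. Tests used edgeR 4.0.16 in R 4.3.3 (TMM, filterByExpr with a minimum count of 10 and a minimum total of 15, robust quasi-likelihood F-test, Benjamini-Hochberg adjustment over all genes tested, threshold 0.05), and DESeq2 1.42.0 as an alternative. SE is the size of the log2 fold change over the square root of F. Ratios of pooled counts have 95% exact intervals, and a group at 0 was set to a floor of 3 counts. Reads carried no molecular identifiers, so intervals and floors cover counting error only. Each genotype comparison used its own table, and comparisons of stages used the shared names.

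Histone genes named in the text are the 10 of highest mean CPM, the highest of each class, those that passed (at most 8 per direction) and the 3 of smallest p per comparison, and others are given as examples of a count. The members, gene lists and tests were chosen with earlier results of these data known. Fits were tested on simulated data. Stem-loops and shared stretches were searched in GENCODE M21 transcripts, and promoters are from RefSeq (GRCm38.p6).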

Additional observations from a re-analysis of the deposited data

Results flagged for a closer look

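Sets of 4 libraries, which only early telogen KO provides, were screened for a value far from the other 3 in the named genes and class sums. Of 16 screened, 2 held such a value by Dixon's criterion. Hist2h2bb had 0.751 CPM in early telogen KO replicate 5 and 0 in the other 3 libraries. Hist1h1b had 0.178 CPM in early telogen KO replicate 2 and 0 in the other 3. Each value rests on 2 counts. With the other 3 libraries at 0 any count meets the criterion, so its usual rate by chance, about 1 in 20 groups, does not apply, and 21 of the 70 genes had counts in exactly 1 early telogen KO library.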

How the results depend on the processing

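The counts of clustered genes that passed were above 0 only for genes lower in early telogen, with 10 in WT and 13 in KO. The WT count was 8 to 12 over 11 alternatives. All other reported counts were 0, and staying at 0 was scored as unchanged. Of all alternative values, most of which set 0 against 0, 128 of 130 stayed within 1.5 times the reported one. The others were 5 lower in KO early telogen against anagen without anagen KO replicate 2 (5 to 13 over libraries left out) and 1 lower for the difference between stages with no filter on low counts. With library totals in place of TMM the median of all genes moved to 0.21 for early telogen KO against WT (95 higher and 46 lower) and to -0.23 for WT early telogen against anagen (1293 higher and 2450 lower), and clustered genes that passed stayed at 0 and 10. DESeq2 did not call Hist1h4i (adjusted p 0.131) or Hist2h2bb (0.240) in KO early telogen against anagen. With labelled sex as a covariate Hist3h2a did not pass in KO (0.0504) or WT (0.0948). Without early telogen KO replicate 5, Hist3h2a (0.0838) and Hist1h2be (0.0617) did not pass, nor Hist3h2a without replicate 3 (0.0728) or Hist2h2bb without anagen KO replicate 1 (0.0546). In anagen KO against WT, where nothing passed, signs turned with library totals for Hist1h2bm (0.0755) and Hist1h2bf (0.0208), with sex for Hist2h2be (-0.29) and Hist2h2bb (-0.32), and with title day for Hist1h2bm (0.0103). Leaving out single libraries there gave -0.31 to 0.29 for Hist1h2bm, -0.31 to 0.24 for Hist1h2bf, -0.00872 to 2.33 for Hist1h1c, -0.29 to 1.97 for Hist1h2bc, -0.11 to 0.27 for Hist2h2be, -0.14 to 0.91 for Hist3h2a, -0.74 to 2.59 for Hist1h4i, -0.10 to 1.54 for Hist1h2be and -0.40 to 0.36 for Hist2h2bb, and in early telogen -0.0786 to 0.38 for Hist1h1c. For the difference between stages the ranges were -0.0191 to 2.21 for Hist3h2a, -0.85 to 4.38 for Hist1h4i, -2.13 to 0.18 for Hist1h1c, -1.71 to 0.52 for Hist1h2bc and -0.33 to 3.96 for Hist1h1d. Hist1h4i had -0.11 there with sex, and without both libraries of discordant day labels, an alternative chosen after seeing the data, Hist1h1d had -0.74 and Hist1h4i -1.50. The causes were not tested. With replicate number as a block, 0 clustered genes passed in early telogen, and same-numbered libraries correlated at 0.106 and 0.0532 over genes, so with 2 pairs the numbers were not taken as pairing. Between genotypes 3 of the 70 genes had enough counts to be tested in early telogen and 20 in anagen, and the part of depth in this was not tested.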
